A study of Mus musculus with 4 samples.

Results

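The vacuolar proton pump (V-ATPase) was described through 10 of its subunit genes, taken by gene symbol from an RNA-seq table of 49585 mouse genes. They are Atp6v0a1, Atp6v0b, Atp6v0c and Atp6v0d1 of the membrane sector V0, Atp6v1a, Atp6v1b2, Atp6v1c1, Atp6v1d and Atp6v1h of the cytosolic sector V1, and the accessory subunit Atp6ap1. All 10 were among the 12669 genes counted as expressed, with at least 1 FPKM (fragments scaled to exon length and library size) in at least 1 library. The cells were murine 4T1 triple-negative breast cancer (TNBC) cells, a mouse mammary carcinoma line grown in culture. 4T1-HM and 4T1-LM are clones with high and low metastatic capacity, each grown from a single cell. Each clone was kept for 48 h with 50 μmol/L deferasirox (DFX), an iron chelator dissolved in DMSO, or with DMSO alone. The 4 libraries are called HM_Ctrl, HM_DFX, LM_Ctrl and LM_DFX. Each condition is 1 library of 1 clone, so no value has a replicate error and no difference was tested.

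The pump uses ATP in its V1 sector to turn a rotor, and the turning V0 ring carries protons through the membrane into endosomes, lysosomes and the Golgi apparatus. The acid it makes activates lysosomal hydrolases, frees iron from transferrin inside endosomes and serves as the acid source for acid secretion by osteoclasts and kidney cells. Many lysosomal genes, pump subunits among them, are known to carry the CLEAR motif, which binds transcription factors of the TFEB and MITF family.

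Library totals solved from the FPKM steps were between 14363065 and 21883855 fragments, LM_DFX being the deepest. The labelled cell type was checked on its defining markers. Of 7 epithelial markers 6 were expressed, Krt8 and Krt18 at 134 FPKM or more in every library, and their summed level was 1765 FPKM in HM_Ctrl and 564 in HM_DFX, against 2244 in LM_Ctrl and 1061 in LM_DFX. Of the receptor genes whose products TNBC lacks, Pgr was at 0 in all 4 libraries, Esr1 reached 0.529 FPKM and Erbb2 lay between 3.80 and 12.5 FPKM, lower with DFX in both clones (log2 ratio of FPKM + 1 -1.49 in 4T1-HM and -1.17 in 4T1-LM). Macrophage and osteoclast markers were checked because osteoclasts are rich in this pump, and 2 of 8 were expressed. Acp5, the tartrate-resistant acid phosphatase of osteoclasts, was at 21.4 FPKM in HM_Ctrl and 7.27 in HM_DFX, against 14.3 in LM_Ctrl and 19.2 in LM_DFX. Cd68, a lysosomal membrane protein of macrophages, lay between 12.3 and 83.1 FPKM. Of the others Adgre1 and Calcr were at 0 in all 4 libraries, Ptprc had no more than 4 fragments, Itgam no more than 1, Csf1r no more than 14 and Ctsk no more than 18. Of 7 fibroblast markers only Pdgfra was expressed, and the list summed to between 3.51 and 5.64 FPKM. With DFX in 4T1-HM 5 of the 6 expressed epithelial markers were lower by 2-fold, against 12.4% of all expressed genes, namely Krt7 (-2.39), Krt8 (-2.14), Krt18 (-1.62), Cdh1 (-1.07) and Epcam (-1.003). In 4T1-LM 2 of 6 were, Krt7 (-2.23) and Krt8 (-1.50), against 8.72% of all, while Krt19 was higher there (1.14) and in HM_Ctrl over LM_Ctrl (1.10). Krt8 was also lower in HM_DFX than in LM_DFX (-1.33). The part of these shifts in the results on the pump was not tested. In bulk RNA, fewer cells of a kind and less RNA per cell cannot be told apart.

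The promoters of 4 of the genes are shown because Atp6v0b and Atp6v0d1 had the largest DFX differences, Atp6v1a holds the same motif with a small difference in 4T1-HM, and Atp6v1d was higher under DFX without it. RefSeq windows on GRCm38.p6, from 250 bases before to 50 after the annotated start, covered 7 of the 10 genes and not Atp6v1b2, Atp6v1c1 or Atp6v1h. Atp6v0b lies at chr4:117887280-117887579, Atp6v0d1 at chr8:105566015-105566314, Atp6v1a at chr16:44139210-44139509 and Atp6v1d at chr12:78861589-78861888, all on the minus strand. They are written 5′ to 3′ on the gene's strand, with each match to the CLEAR core TCACGTG on either strand in capitals.
Atp6v0b: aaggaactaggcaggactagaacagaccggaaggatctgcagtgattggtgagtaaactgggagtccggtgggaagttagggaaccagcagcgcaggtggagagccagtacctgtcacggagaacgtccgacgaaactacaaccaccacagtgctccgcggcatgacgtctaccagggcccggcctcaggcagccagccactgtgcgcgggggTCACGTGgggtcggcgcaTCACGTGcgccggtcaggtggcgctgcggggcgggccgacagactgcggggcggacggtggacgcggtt
Atp6v0d1: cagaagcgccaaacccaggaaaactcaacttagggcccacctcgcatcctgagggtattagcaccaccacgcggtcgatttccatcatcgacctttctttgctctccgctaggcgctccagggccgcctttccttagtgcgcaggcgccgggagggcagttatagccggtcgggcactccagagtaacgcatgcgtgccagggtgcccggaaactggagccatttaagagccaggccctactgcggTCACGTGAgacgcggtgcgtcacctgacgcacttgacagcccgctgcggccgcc
Atp6v1a: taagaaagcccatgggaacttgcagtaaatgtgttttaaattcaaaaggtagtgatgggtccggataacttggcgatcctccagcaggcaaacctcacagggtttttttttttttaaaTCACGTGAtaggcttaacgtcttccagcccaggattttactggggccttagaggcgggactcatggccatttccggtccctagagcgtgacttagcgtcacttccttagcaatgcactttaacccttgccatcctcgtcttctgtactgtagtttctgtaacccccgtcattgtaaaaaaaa
Atp6v1d: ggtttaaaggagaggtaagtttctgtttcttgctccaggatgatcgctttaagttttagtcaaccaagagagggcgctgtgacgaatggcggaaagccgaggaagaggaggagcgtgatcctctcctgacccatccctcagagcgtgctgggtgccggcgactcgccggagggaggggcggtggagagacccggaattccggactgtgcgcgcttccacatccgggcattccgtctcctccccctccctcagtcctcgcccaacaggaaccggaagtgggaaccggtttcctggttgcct
Atp6v0b held 2 separate matches, whose first bases lie 37 and 19 bases before the start. In Atp6v0d1 the match began 4 bases before the start and ran across it, and in Atp6v1a it began 132 bases before the RefSeq start. Both of these matches lie in a palindrome, so the opposite strand matches too, 1 base on. The window of Atp6v1a lies wholly inside the gene as counted for FPKM (chr16:44085402-44139705), so its match is not upstream of that gene. The window of Atp6v0a1 (chr11:101010148-101010447) also lies inside its gene as counted (chr11:101009452-101063719). The core was in 3 of the 7 genes with a window (42.9%), against 4.29% of all 27025 genes with windows of this length. It was in 1 of 12 other pump subunit genes with a window, Atp6v0e. The E-box CACGTG, which is contained in the core, was in the same 3 genes and in 8.09% of all genes. The shorter ACGTG, known as the core of the hypoxia response element and contained in both, was also found in Atp6ap1, making 4 of 7 genes against 21.8% of all. The 10-base form of the CLEAR element was in none of the 7 windows and in 0.370% of all genes. These are matches of letters, not sites shown to be bound.

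Pump mRNA was lowest in untreated 4T1-LM cells. For each of the 10 genes, LM_Ctrl held the lowest of the 4 values, and for 8 of them HM_DFX held the highest. The summed FPKM of the 10 genes was 431 in HM_Ctrl and 706 in HM_DFX, against 215 in LM_Ctrl and 541 in LM_DFX. The exceptions at the top were Atp6v0a1, highest in HM_Ctrl, and Atp6v1a, highest in LM_DFX. For Atp6ap1 the 3 libraries other than LM_Ctrl lay close together, between 61.9 and 64.5 FPKM.

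**Figure D1:**
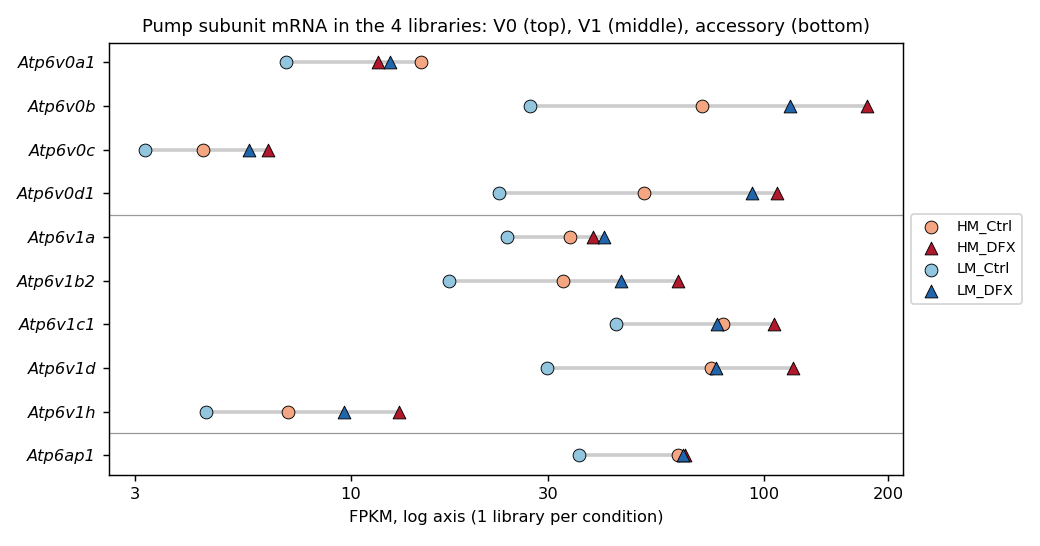
FPKM (log axis) of the 10 subunit genes in the 4 libraries, circles for DMSO and triangles for DFX, red shades for 4T1-HM and blue shades for 4T1-LM, with a grey bar from the lowest to the highest library. The light blue circle of LM_Ctrl is the leftmost point in every row, and Atp6v0b spans the widest range, from 27.2 to 178 FPKM.

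In the V0 sector, Atp6v0b (ENSMUSG00000033379, chr4:117884326-117887333) encodes the c″ subunit of the proton-carrying ring. It was at 70.8 FPKM in HM_Ctrl and 178 in HM_DFX, against 27.2 in LM_Ctrl and 116 in LM_DFX. Both DFX libraries stood above both DMSO libraries, and with DFX it was the most abundant of the 10 genes in either clone. Atp6v0d1 (ENSMUSG00000013160, chr8:105524465-105566047) encodes subunit d, which joins the ring to the central stalk. It was at 51.2, 108, 22.8 and 93.8 FPKM in HM_Ctrl, HM_DFX, LM_Ctrl and LM_DFX, the same order of libraries as Atp6v0b. Atp6v0c (ENSMUSG00000024121, chr17:24163866-24169702) encodes the main c subunit of the ring. Its FPKM was 4.38 in HM_Ctrl and 6.30 in HM_DFX, against 3.17 in LM_Ctrl and 5.66 in LM_DFX, from 169 to 419 fragments, the lowest level of the 10 genes in every library. Of its 31-base exon stretches, 11.9% also occur in its pseudogenes Atp6v0c-ps1 and Atp6v0c-ps2, so its level is uncertain. Atp6v0a1 (ENSMUSG00000019302, chr11:101009452-101063719) encodes an isoform of subunit a, the stator arm that holds the proton half-channels. It was at 14.8 FPKM in HM_Ctrl and 11.6 in HM_DFX, against 6.98 in LM_Ctrl and 12.4 in LM_DFX. LM_Ctrl alone was low, and within 4T1-HM the treated library was the lower of the pair.

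In the V1 sector, Atp6v1a (ENSMUSG00000052459, chr16:44085402-44139705) encodes the catalytic A subunit that hydrolyses ATP. Its levels in HM_Ctrl, HM_DFX, LM_Ctrl and LM_DFX were 34.0, 38.7, 23.8 and 41.1 FPKM, the smallest ratio of highest to lowest library among the V1 genes. Atp6v1b2 (ENSMUSG00000006273, chr8:69088646-69113711) encodes the B subunit, which alternates with A in the catalytic head. It stood at 32.6 FPKM in HM_Ctrl and 62.0 in HM_DFX, against 17.3 in LM_Ctrl and 45.1 in LM_DFX, so both treated libraries were above both untreated ones. Atp6v1d (ENSMUSG00000021114, chr12:78842989-78861638) encodes the D subunit of the central rotor shaft. Its FPKM was 74.4 in HM_Ctrl and 118 in HM_DFX, against 29.8 in LM_Ctrl and 76.6 in LM_DFX, where treated LM cells came to about the level of untreated HM cells. Atp6v1c1 (ENSMUSG00000022295, chr15:38661904-38692443) encodes subunit C, the part of the stator released when the sectors come apart. HM_Ctrl had 79.5 FPKM of it, HM_DFX 106, LM_Ctrl 43.8 and LM_DFX 77.1, again with LM_DFX close to HM_Ctrl. Atp6v1h (ENSMUSG00000033793, chr1:5070018-5162529) encodes subunit H, which couples ATP hydrolysis to rotation and silences free V1. It was at 7.05, 13.1, 4.46 and 9.61 FPKM in the same order of libraries, low throughout but highest under DFX in both clones. The accessory subunit Atp6ap1 (Ac45, ENSMUSG00000019087, chrX:74297097-74304721), which takes part in assembly of V0, was at 61.9 FPKM in HM_Ctrl and 64.5 in HM_DFX, against 35.6 in LM_Ctrl and 63.9 in LM_DFX.

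The order of the genes shifted with treatment. In untreated cells Atp6v1c1 was the most abundant of the 10 in both clones, with 586 expressed genes above it in HM_Ctrl and 1321 in LM_Ctrl. Under DFX Atp6v0b led, with 237 expressed genes above it in HM_DFX. FPKM is a level per length of all annotated exons of a gene, so the order between genes also rests on those lengths, and neighbours in it have no spread to be compared with. Reads of Atp6v0b, Atp6v1b2 and Atp6v1h overlap genes on the opposite strand (Gm12841, Slc18a1 and Rgs20), and the strand setting of the counting is not given in the sources used here.

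Untreated 4T1-HM cells held more mRNA of all 10 genes than untreated 4T1-LM cells. The log2 ratio of FPKM + 1, HM_Ctrl over LM_Ctrl, had a median of 0.86 over the 10 genes and of 0.01 over all expressed genes. It was 1.35 for Atp6v0b, 1.29 for Atp6v1d and 1.13 for Atp6v0d1, and these 3 of 10 passed 2-fold, as did 3.65% of all expressed genes in this direction. At 1.5-fold 7 of 10 passed, against 10.5% of all. None of the 10 was lower by 2-fold, against 3.15% of all. The smallest differences were those of Atp6v0c (0.37), Atp6v1a (0.50) and Atp6v1h (0.56). The exact 95% counting interval of the ratio of fragment rates was 2.40 to 2.81 for Atp6v0b, and wider beside its value for Atp6v0c, from 1.13 to 1.69. Atp6v0a1 lay just under the 2-fold threshold at 0.98, and a pseudocount of 0.1 in place of 1 put it above, at 1.07.

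DFX in 4T1-HM cells was accompanied by more mRNA of Atp6v0b and Atp6v0d1 and by little difference in Atp6v1a and Atp6ap1. Atp6v0b (log2 ratio of FPKM + 1, HM_DFX over HM_Ctrl, 1.32) and Atp6v0d1 (1.06) passed 2-fold, 2 of 10 genes against 6.93% of all expressed genes higher and 12.4% lower. Atp6v1b2 followed at 0.90, Atp6v1h at 0.81 and Atp6v1d at 0.66, so that 5 of 10 passed 1.5-fold, as did 16.0% of all. Atp6v1c1 was at 0.41 and Atp6v0c at 0.44. Atp6v1a at 0.18 and Atp6ap1 at 0.06 were nearly level, and the 95% counting interval of the Atp6ap1 ratio, 0.990 to 1.10, included 1. Atp6v0a1 was the only one of the 10 lower under DFX, at -0.32, with a ratio of 0.788 and a counting interval of 0.729 to 0.851. The median of the 10 was 0.55, beside -0.10 for all expressed genes. Scaling the libraries by their median ratio moved the median of all genes by 0.10, to 0.00, and that of the 10 genes to 0.67, and put Atp6v1b2 past 2-fold at 1.04. Of all genes past 2-fold, 35.9% were higher with FPKM as deposited and 46.7% with this scaling.

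In 4T1-LM cells all 10 genes were higher with DFX. The median log2 ratio of FPKM + 1, LM_DFX over LM_Ctrl, was 0.89, beside -0.04 for all expressed genes. Atp6v0b was higher by 2.05 and Atp6v0d1 by 1.99 on this scale. Their ratios of fragment rates were 4.24 (95% counting interval 3.95 to 4.56) and 4.11 (3.78 to 4.48), and 165 and 181 of the expressed genes had larger log2 ratios. Atp6v1b2 and Atp6v1d, both at 1.33, also passed 2-fold, making 4 of 10 against 7.09% of all genes higher and 8.72% lower. Atp6v1h was at 0.96 (1.09, past 2-fold, with a pseudocount of 0.1), Atp6ap1 at 0.82, Atp6v1c1 at 0.80, Atp6v1a at 0.76, Atp6v0a1 at 0.75 and Atp6v0c at 0.67. All 10 therefore passed 1.5-fold, against 16.5% of all genes. The V0 genes had a median of 1.37 and the V1 genes of 0.96, with the V0 values split between the pair near 2 and the pair under 0.80. The sum of the 8 macrophage and osteoclast markers was 26.7 FPKM in LM_Ctrl, 102.5 in LM_DFX, 34.5 in HM_Ctrl and 45.6 in HM_DFX. Cd68 was at 12.3 FPKM in LM_Ctrl and 83.1 in LM_DFX (2.66), and also higher with DFX in 4T1-HM (1.46) and lower in HM_DFX than in LM_DFX (-1.13). Acp5 was the larger part of the sum in both DMSO libraries, and its log2 ratio was 0.40 with DFX in 4T1-LM, -1.44 with DFX in 4T1-HM and -1.29 for HM_DFX over LM_DFX. The defining markers Adgre1 and Calcr were at 0 in LM_Ctrl and LM_DFX, and Ptprc, the pan-leukocyte CD45, had 4 fragments and 1 fragment. The part of these shifts in the pump result was not tested.

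**Figure D2:**
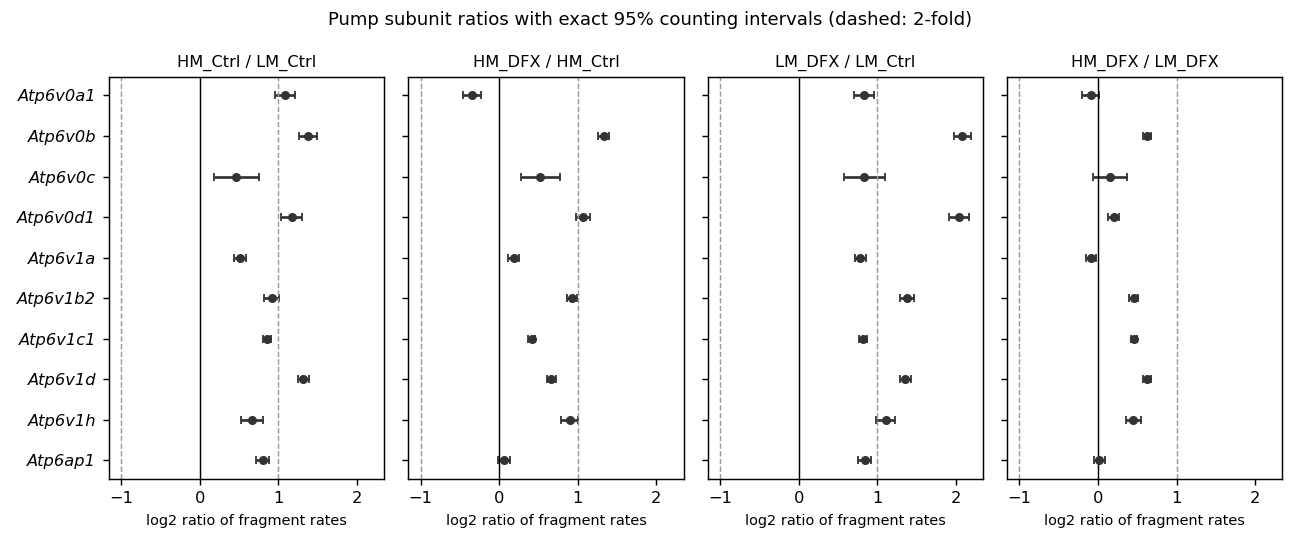
Log2 ratios of fragment rates, without pseudocount, of the 10 subunit genes in 4 comparisons (columns), with bars for exact 95% counting intervals, which cover counting error only, and dashed lines at 2-fold. All points of LM_DFX over LM_Ctrl lie to the right of 0, and no point of HM_DFX over LM_DFX reaches 2-fold.

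All 10 genes had a larger log2 ratio with DFX in 4T1-LM than in 4T1-HM. The difference, LM response minus HM response, had a median of 0.63 over the 10 genes and of 0.08 over all expressed genes, of which 56.5% lay above 0. It was largest for Atp6v0a1 (1.07), the only one of the 10 past 2-fold, against 5.38% of all expressed genes. Atp6v0d1 (0.94), Atp6ap1 (0.77), Atp6v0b (0.73), Atp6v1d (0.67) and Atp6v1a (0.58) followed, and Atp6v0c (0.23) and Atp6v1h (0.15) differed least. These values rest on the same 4 libraries as the difference between untreated clones, so the low LM_Ctrl level and the larger LM response are not separate observations. The difference was not tested, since each response is a single pair of libraries.

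**Figure D3:**
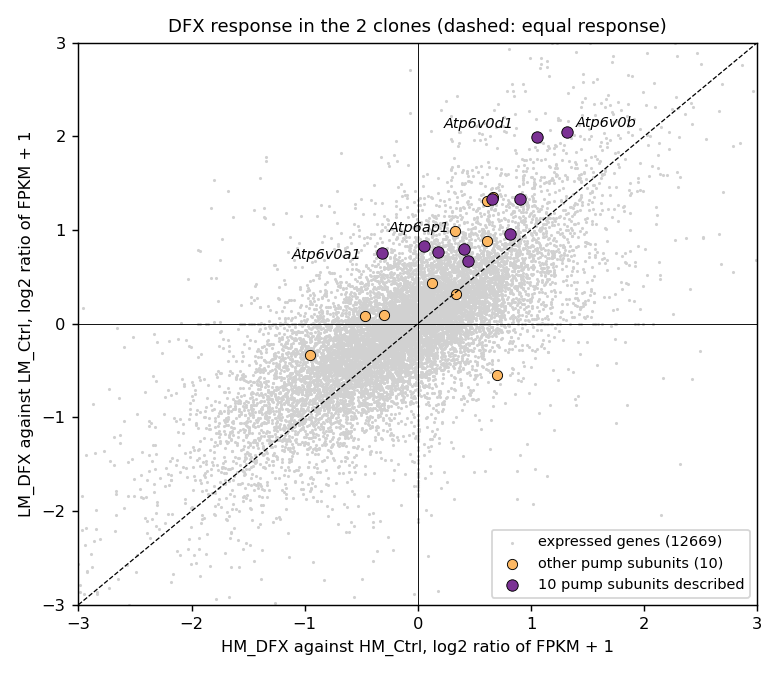
DFX response of each gene in 4T1-HM (horizontal) and 4T1-LM (vertical), both as log2 ratio of FPKM + 1, for all 12669 expressed genes (grey, those beyond 3 not drawn), the 10 subunits described (purple) and 10 other expressed pump subunit genes (orange). All 10 purple points lie above the dashed line of equal response, Atp6v0b farthest to the upper right and Atp6v0a1 left of 0.

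With DFX the clones were closer, which restates the larger LM response from the same libraries and is not a separate observation. HM_DFX over LM_DFX gave a median log2 ratio of FPKM + 1 of 0.30 for the 10 genes, beside -0.05 for all expressed genes and 0.86 for the 10 genes without DFX. None of the 10 passed 2-fold, against 3.31% of all genes higher and 5.05% lower. Atp6v0b and Atp6v1d, both at 0.62, passed 1.5-fold, 2 of 10 against 9.95% of all. Atp6v1c1 and Atp6v1b2 were at 0.45, Atp6v1h at 0.41, Atp6v0d1 at 0.20 and Atp6v0c at 0.13. Atp6ap1 (0.01), Atp6v0a1 (-0.09) and Atp6v1a (-0.09) were about level. The 95% counting interval of the ratio included 1 for Atp6v0a1 (0.868 to 1.01), Atp6v0c (0.957 to 1.29) and Atp6ap1 (0.963 to 1.06), so their differences lay within counting error. An interval that excludes 1, such as 0.901 to 0.983 for Atp6v1a, covers counting error only and is not a test.

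**Figure D4:**
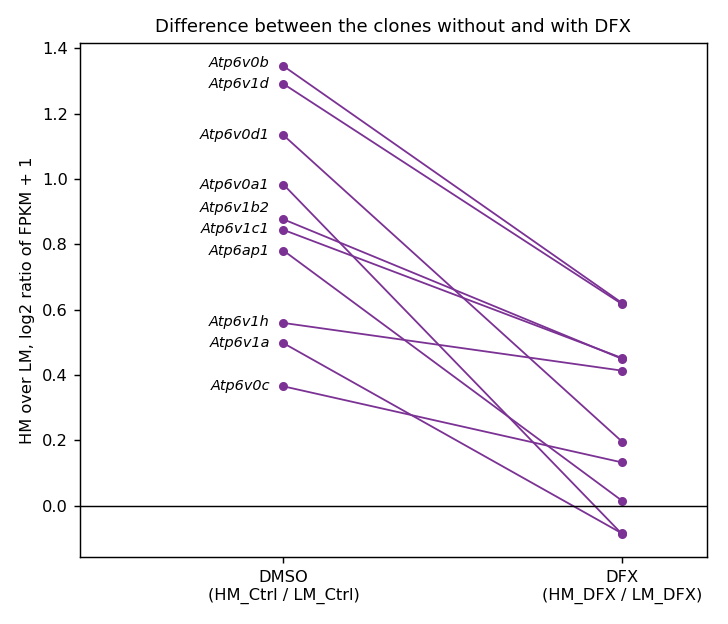
Log2 ratio of FPKM + 1, 4T1-HM over 4T1-LM, of each subunit gene in DMSO (left) and in DFX (right), joined by a line. The 2 sides share no library, but the fall of each line is by arithmetic the LM response minus HM response of that gene. Every line falls to the right, from between 0.37 and 1.35 to between -0.09 and 0.62.

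Several subunits have alternative genes, and shares of their summed FPKM show how the mRNA of each subunit was divided among them. Which isoforms were built into the pump was not measured. For subunit a, Tcirg1 (the a3 isoform of lysosomes and osteoclasts) made up 49.6% in HM_Ctrl and 41.4% in HM_DFX, against 63.4% in LM_Ctrl and 55.0% in LM_DFX. Atp6v0a1 made up 29.1%, 26.7%, 17.0% and 24.6% in the same order, and Atp6v0a2, the Golgi and endosome isoform, 21.2%, 31.8%, 19.6% and 20.3%. Tcirg1 was thus the largest of the 3 in every library, and Atp6v0a4, the kidney isoform, stayed at or under 0.0931%. Of the 31-base exon stretches of Atp6v0a2, 9.50% also occur in other genes. It overlaps 4930404A12Rik on the opposite strand, so its share is uncertain. Tcirg1 itself was at 25.2 FPKM in HM_Ctrl and 18.0 in HM_DFX, against 26.1 in LM_Ctrl and 27.8 in LM_DFX. It was lower under DFX in 4T1-HM (log2 ratio of FPKM + 1 -0.46) and nearly level in 4T1-LM (0.09), and the clones hardly differed without DFX (-0.05). Atp6v0d1 made up at least 99.9% of subunit d, Atp6v1b2 all but a trace of subunit B and Atp6v1c1 at least 95.8% of subunit C. Subunit e was more mixed, with Atp6v0e at 82.0% in HM_Ctrl and 94.8% in LM_DFX and Atp6v0e2 making up the rest.

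**Figure D5:**
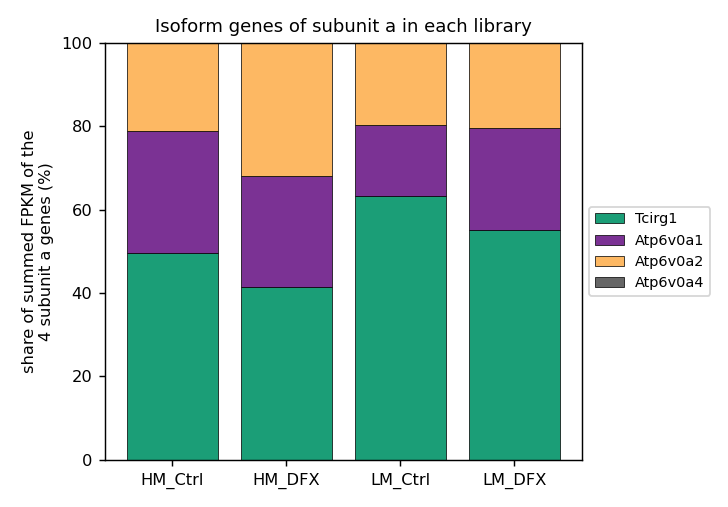
Share (%) of the summed FPKM of the 4 genes of subunit a held by each gene, stacked to 100% for each of the 4 libraries. Tcirg1 (green) is the largest share throughout, from 41.4% in HM_DFX to 63.4% in LM_Ctrl, and Atp6v0a4 is too small to be seen.

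Of 17 other subunit and isoform genes, 10 were expressed, and their median log2 ratios of FPKM + 1 were 0.42 for HM_Ctrl over LM_Ctrl, 0.33 for DFX in 4T1-HM and 0.37 for DFX in 4T1-LM. Atp6ap2, the prorenin receptor and second accessory subunit, was at 60.5 FPKM in HM_Ctrl and 96.5 in HM_DFX, against 23.9 in LM_Ctrl and 62.5 in LM_DFX. It passed 2-fold between the untreated clones (1.31) and with DFX in 4T1-LM (1.35), as did Atp6v1d. Atp6v1f, the F subunit of the rotor shaft, was at 69.7, 107, 43.7 and 109 FPKM and passed 2-fold with DFX in 4T1-LM (1.31). The most abundant pump gene in each library was Atp6v1g1, a stator subunit, with 144, 181, 104 and 207 FPKM. Of the 31-base exon stretches, 24.0% in Atp6v1g1 and 18.4% in Atp6v1f occur in other genes, so their levels are uncertain. Atp6v1c2 passed 2-fold in the other direction between the untreated clones (-1.51), from 1 fragment in HM_Ctrl and 63 in LM_Ctrl. Its ratio of 0.0149 has a counting interval from 0.000372 to 0.0862. On the FPKM + 1 scale none of these 10 genes passed 2-fold with DFX in 4T1-HM. Of all expressed genes 6.93% were higher there and 12.4% lower. None did between HM_DFX and LM_DFX (3.31% and 5.05% of all), where their median was -0.05. Without pseudocount, the Atp6v1g2 ratio with DFX in 4T1-HM was 0.220 (counting interval 0.111 to 0.401), from 69 fragments in HM_Ctrl and 13 in HM_DFX. That of Atp6v1c2 was 23.3 (3.73 to 966), from 1 and 20. Atp6v1g2 and Atp6v1c2 overlap Nfkbil1 and Pdia6 on the opposite strand.

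Genes that work with the pump were examined in 5 further lists. Of 11 assembly and regulatory factors 9 were expressed, with median log2 ratios of FPKM + 1 of 0.34 (HM_Ctrl over LM_Ctrl), 0.01 (DFX in 4T1-HM) and 0.10 (DFX in 4T1-LM). Dmxl1 and Wdr7, parts of the RAVE-like complex that reassembles V1 with V0, were the higher in the untreated 4T1-HM library (1.20 and 1.03). Wdr7 was higher with DFX in 4T1-LM (1.09) and in 4T1-HM (0.79). The highest expressed of them was Oxr1, at 23.2 to 52.5 FPKM. Among the CLEAR-binding factors 3 of 4 were expressed and none passed 2-fold in any comparison on the FPKM + 1 scale. Between 3.15% and 12.4% of all expressed genes did so, depending on comparison and direction, so none among 3 genes says little. Tfe3 was the highest at 5.92 to 7.95 FPKM, with log2 ratios of 0.27 with DFX in 4T1-HM and 0.21 in 4T1-LM. Tfeb went the other way, at -0.33 in 4T1-HM and -0.09 in 4T1-LM. Its ratio without pseudocount in 4T1-HM was 0.674 (95% counting interval 0.513 to 0.880). Mitf had log2 ratios of 0.85 with DFX in 4T1-HM and 0.57 in 4T1-LM. Without pseudocount, the Mitf ratio was 2.29 in 4T1-HM (95% counting interval 1.90 to 2.77) and 1.80 in 4T1-LM (1.48 to 2.20).

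Of the Ragulator and Rag genes, which tie the pump to mTORC1 signalling, 8 of 10 were expressed, with medians of 0.20, -0.22 and -0.01 in the same 3 comparisons. Rragc was at 55.9 FPKM in HM_Ctrl and 103 in HM_DFX, against 21.2 in LM_Ctrl and 51.4 in LM_DFX, higher by 1.36 in HM_Ctrl than in LM_Ctrl and by 1.24 with DFX in 4T1-LM. Lamtor4 was the only 1 of the 8 lower by 2-fold, at -1.11 with DFX in 4T1-HM, beside -0.39 in 4T1-LM. With DFX in 4T1-HM 12.4% of all expressed genes were lower by 2-fold. Of 12 endolysosomal ion channel genes 11 were expressed, with medians of 0.36, 0.03 and 0.52. Clcn7, the chloride-proton exchanger of lysosomes, passed 2-fold with DFX in 4T1-LM (1.35) and lay just under it in 4T1-HM (0.95). Mcoln1, a lysosomal calcium and iron channel, passed 2-fold with DFX in 4T1-LM (1.06) and between the untreated clones (1.44). With DFX in 4T1-HM it was nearly level (0.03). Mcoln3 was at 9 fragments in HM_Ctrl and 184 in HM_DFX (2.02), and higher in HM_DFX than in LM_DFX (1.71), with 0.52 for DFX in 4T1-LM. Tpcn1, at 14.1 FPKM in HM_Ctrl the highest of the list there, was lower with DFX in 4T1-HM (-1.76) and in 4T1-LM (-0.99).

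Iron leaves transferrin in the acid endosome, so genes of that step were set beside the pump. The list also holds Fth1, Ftl1 and Ncoa4, which belong to ferritin storage and turnover rather than to that step. Of 9 genes 8 were expressed, with medians of -0.11 for HM_Ctrl over LM_Ctrl, 0.45 for DFX in 4T1-HM and 0.19 for DFX in 4T1-LM. Steap3, the endosomal ferrireductase, was higher in HM_Ctrl than in LM_Ctrl (1.02) and with DFX in 4T1-LM (1.24), as Atp6v1d was. With DFX in 4T1-HM the log2 ratio of Steap3 was 0.38. Its relative Steap2 was lower with DFX in both clones (-2.44 in 4T1-HM and -1.62 in 4T1-LM), as was Steap1 (-0.32 and -0.34). The iron uptake genes Tfrc (0.77 in 4T1-HM and 0.81 in 4T1-LM) and Slc11a2 (0.60 and 0.70) were higher with DFX in both clones. The ferritin heavy chain Fth1 was the most abundant of the list in HM_Ctrl, at 2551 FPKM.

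Profiles over the 4 libraries were also compared with the median profile of the 10 subunits. The candidates were 3926 protein-coding genes with at least 10 FPKM in each library. The 10 subunits and the other subunit and isoform genes were left out, but genes of the further lists were not. The most alike were Ap3d1, Plcd3, Slu7, Fndc3a and Nfx1. Likeness was the root mean square difference of log2(FPKM + 1) after centring each profile on its mean. It was 0.0231 for Ap3d1, a subunit of the AP-3 adaptor of lysosomal sorting, whose FPKM was 40.6 in HM_Ctrl and 60.7 in HM_DFX, against 24.4 in LM_Ctrl and 47.4 in LM_DFX, and 0.0764 for Nfx1. Among the 10 subunits themselves, Atp6v1h was closest to the median profile (0.0670) and Atp6v0b farthest from it (0.513), since its range was the widest. With 4 libraries such a likeness is a description only.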

How the data were processed

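RNA was measured by bulk RNA-seq in 4 libraries, 1 for each condition. The authors deposited FPKM per gene in 1 table. Per the labels, poly(A)-selected directional libraries were sequenced as paired ends. The submitters' processing notes name FastQC, Trimmomatic, HISAT2 and featureCounts with mm10, and versions and strand setting are not given in the sources used here. Gene coordinates equal to GENCODE M21 were found for 45125 of the 49585 genes. Of 18235 such genes above 0, 96.8% gave whole fragments within 0.02 in all 4 libraries at their exon length, which gave totals of 16745608 (HM_Ctrl), 14363065 (HM_DFX), 15731521 (LM_Ctrl) and 21883855 (LM_DFX) fragments. For Atp6v1c1, Atp6v1d and some genes of the other lists, such as Tcirg1, the exon length was solved from the values.

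Groups came from the sample labels, which name no batch, and 0 columns of samples were left unmapped. Fold changes were log2 ratios of FPKM with a pseudocount of 1, for genes with at least 1 FPKM in at least 1 library, called at 2-fold. Ratios of fragment rates had exact 95% Clopper-Pearson intervals, conditional on the sum of both counts, covering counting error only. With 1 library per condition no test was run. The calls and intervals were checked on simulated data that held counting error only, which says nothing about the spread between replicates. Alternatives were a pseudocount of 0.1, scaling by median ratio or the 75th percentile, TPM, other filters on low values and thresholds of 1.5-fold and 4-fold. Promoters and motifs came from RefSeq windows on GRCm38.p6, and shared sequence from 31-base stretches of GENCODE transcripts. The 10 members and the lists were chosen with earlier results of these data known. Named were all 10 members, list genes past 2-fold in any of the 4 comparisons, the highest expressed of each list, and the 5 most alike profiles. Values of others stand where a level, share or ratio is described. Python 3.11.15 with numpy 2.4.6, pandas 2.3.3, scipy 1.17.1 and matplotlib 3.10.9 was used.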

Additional observations from a re-analysis of the deposited data

Results flagged for a closer look

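For 3 of the 20 expressed pump genes the DFX response had opposite signs in the clones, with counting intervals that exclude a ratio of 1 on both sides. The share of all expressed genes that meet this rule was not counted, so the number is a description only. Atp6v0a1 was lower with DFX in 4T1-HM (log2 ratio of FPKM + 1 -0.32) and higher in 4T1-LM (0.75), a difference, LM minus HM, of 1.07. Tcirg1 was lower in 4T1-HM (-0.46) and slightly higher in 4T1-LM (0.09), a difference of 0.55, and the lower end of its interval in 4T1-LM, a ratio of 1.00, lies at the edge. Atp6v1c2 went the other way, higher in 4T1-HM (0.70) and lower in 4T1-LM (-0.54), a difference of -1.24, from 1 fragment in HM_Ctrl and 20 in HM_DFX, against 63 in LM_Ctrl and 46 in LM_DFX. It overlaps Pdia6 on the opposite strand, and with the strand setting not given, its few fragments may not be told from those of Pdia6. None of these differences was tested, because each response is 1 pair of libraries.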

How the results depend on the processing

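No paired analysis was possible because each condition has 1 library and no replicate numbers. No comparison of the 10 genes changed direction under any alternative run. Of 80 values of single genes under median-ratio scaling or a pseudocount of 0.1, 68 stayed within their counting error, 12 moved beyond it and 0 reversed, with shifts of -0.02 to 0.14. The median of the 10 genes moved to 0.67 for HM_DFX over HM_Ctrl under median-ratio scaling and to 0.37 for HM_DFX over LM_DFX as TPM. In the order HM_Ctrl over LM_Ctrl, DFX in 4T1-HM, DFX in 4T1-LM and HM_DFX over LM_DFX, 7, 5, 10 and 2 of the 10 were higher at 1.5-fold, and in the first 3 comparisons 0, 0 and 1 at 4-fold. Genes past the threshold in either direction numbered 861, 2446, 2003 and 1059 at 2-fold, 2431, 5328, 4616 and 3108 at 1.5-fold, and 97, 277, 314 and 95 at 4-fold. With a pseudocount of 0.1 they numbered 1557 for HM_Ctrl over LM_Ctrl, 3070 for DFX in 4T1-LM and 1993 for HM_DFX over LM_DFX. The spread between replicates is unknown for every value here, and the counting intervals do not stand in for it.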
